A study of Mus musculus with 6 samples.

Results

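The spindle checkpoint and mitotic kinase genes described here are 10 genes that were selected by name in the deposited PRO-seq table, namely Bub1, Bub1b, Bub3, Mad2l1, Ttk, Aurka, Aurkb, Plk1, Birc5 and Cdca8. All 10 are among the 14546 protein-coding genes of that table, and all 10 passed the filter on low values that left 12451 genes for testing. They were chosen with their values in the genotype comparison already known from the same 6 libraries, so their differences between genotypes are given as a description and not as a test. PRO-seq maps engaged RNA polymerases: in isolated nuclei the polymerases add a biotin-labelled nucleotide to the RNA being made, which is then purified and sequenced. The libraries came from proliferating muscle stem cells (MuSCs, satellite cells) of the mouse, 3 with the genotype Pax7CreERT/Suv4-20h1WT (Ctrl) and 3 with Pax7CreERT/Suv4-20h1KO (Kmt5b sKO). Suv4-20h1 is another name of Kmt5b, which encodes an enzyme that adds further methyl groups to histone H4 already monomethylated at lysine 20. Both groups carry the Pax7CreERT allele, a tamoxifen-inducible Cre recombinase made in cells that express Pax7, so that recombination is limited to the satellite cell lineage of adult mice on a C57BL/6 background that were given tamoxifen. The cells were purified from limb and trunk muscle with magnetic beads and cultured, and the study describes its mice as 8 to 12 weeks old and of both sexes in equal proportions. The sex of the mice behind each library and the number pooled per library are not given in the sources used here.

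Each gene has 3 readouts. The TSS region covers 400 nt from the listed start and is given in RPM. These values behave as the reads of that region scaled to 1000000 reads in the TSS regions of all isoforms. The gene body is the remainder of the transcript and is given in TPM, which also divides by length. Both units are shares within a library, so a lower value is lower relative to other genes, and total transcription is not measured. The pausing index is the TSS value divided by the gene body value, so that a low index means little polymerase at the start relative to the body. Each region is scaled separately in each library, so the index compares genes within a library. The libraries held 926904 to 3246052 TSS reads and 7425428 to 16249139 gene body reads, as recovered from the values of each region. Behind the members' values lay 42 to 1435 gene body reads per library, but only 4 to 359 TSS reads, and 7 of the 10 genes had fewer than 30 TSS reads in at least 1 library. The gene body is therefore the more precise readout for these genes. Kmt5b itself gave 30.6 to 38.5 TPM in the gene body of Ctrl and 35.0 to 42.6 TPM in Kmt5b sKO, and as the deleted part of the gene was not measured separately, these values do not check the genotype labels.

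The spindle assembly checkpoint holds a dividing cell in metaphase until every kinetochore, the protein platform on a centromere, is attached to spindle microtubules. TTK (also called MPS1) starts the signal at unattached kinetochores, BUB1 and BUB3 are recruited there, and MAD2L1, BUB1B (BUBR1) and BUB3 join CDC20 in the complex that restrains the anaphase-promoting complex. Aurora B (Aurkb), survivin (Birc5) and borealin (Cdca8) together with INCENP form the chromosomal passenger complex, which corrects wrong attachments, while Aurora A (Aurka) and PLK1 drive centrosome maturation and mitotic entry. Most of these genes are transcribed mainly in late S phase, G2 and mitosis, and in other cell types their promoters are known to be read by the DREAM, B-MYB and FOXM1 complexes through a cell cycle genes homology region (CHR) and by NF-Y through CCAAT boxes. PRO-seq of a mixed culture averages over all cells, so that PRO-seq alone cannot tell fewer cells in G2 and M from less transcription per cell. In flow cytometry of cultured MuSCs, the study reports G0/G1 and S phase shares without a significant change in Kmt5b sKO. It reports a slight rise of the G2/M share. No cell cycle phases are given for the cells of these libraries, and the part of the cell cycle in the values below was not tested.

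Promoter sequence was available for 9 of the 10 genes, all but Aurkb, as RefSeq windows of 300 bases in GRCm38.p6 that hold 250 bases before the annotated start and 50 from the start base on. The windows of 5 genes are shown because they span the patterns found, which are Ttk, Plk1 and Cdca8 with CHR and CCAAT letters near the start, Bub1 with CCAAT letters and the largest gene body difference, and Bub3 with both motifs and the smallest difference. Capitals mark exact matches on either strand to the CHR letters (TTTGAA or TTTAAA, whose complements read TTCAAA and TTTAAA) and to the CCAAT box (CCAAT or ATTGG). Ttk lies on the plus strand of chr9:83834439-83834738, Plk1 on the plus strand of chr7:122159185-122159484, Cdca8 on the minus strand of chr4:124936868-124937167, Bub1 on the minus strand of chr2:127831810-127832109 and Bub3 on the plus strand of chr7:131560120-131560419, and each sequence reads 5′ to 3′ along its gene.
Ttk: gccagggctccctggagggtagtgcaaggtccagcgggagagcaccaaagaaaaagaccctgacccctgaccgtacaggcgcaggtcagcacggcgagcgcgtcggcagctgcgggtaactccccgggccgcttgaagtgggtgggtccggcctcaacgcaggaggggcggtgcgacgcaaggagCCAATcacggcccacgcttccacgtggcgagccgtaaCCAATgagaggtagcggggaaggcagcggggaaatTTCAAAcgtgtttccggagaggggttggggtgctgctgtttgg
Plk1: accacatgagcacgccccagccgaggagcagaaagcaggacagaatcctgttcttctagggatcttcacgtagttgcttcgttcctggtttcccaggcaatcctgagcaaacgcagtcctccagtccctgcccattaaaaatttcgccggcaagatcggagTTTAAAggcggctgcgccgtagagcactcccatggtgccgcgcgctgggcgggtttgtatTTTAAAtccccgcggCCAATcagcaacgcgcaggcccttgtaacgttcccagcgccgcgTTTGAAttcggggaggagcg
Cdca8: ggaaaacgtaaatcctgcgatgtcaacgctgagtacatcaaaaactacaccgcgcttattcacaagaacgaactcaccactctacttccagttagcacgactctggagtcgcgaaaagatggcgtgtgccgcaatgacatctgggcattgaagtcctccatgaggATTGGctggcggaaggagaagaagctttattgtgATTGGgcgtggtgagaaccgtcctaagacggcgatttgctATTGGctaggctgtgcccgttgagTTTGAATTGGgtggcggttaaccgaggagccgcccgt
Bub1: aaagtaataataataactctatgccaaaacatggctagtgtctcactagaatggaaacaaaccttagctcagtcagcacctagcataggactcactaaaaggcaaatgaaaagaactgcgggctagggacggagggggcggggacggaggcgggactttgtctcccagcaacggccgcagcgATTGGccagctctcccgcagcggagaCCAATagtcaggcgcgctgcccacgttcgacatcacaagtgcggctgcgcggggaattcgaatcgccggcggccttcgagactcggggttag
Bub3: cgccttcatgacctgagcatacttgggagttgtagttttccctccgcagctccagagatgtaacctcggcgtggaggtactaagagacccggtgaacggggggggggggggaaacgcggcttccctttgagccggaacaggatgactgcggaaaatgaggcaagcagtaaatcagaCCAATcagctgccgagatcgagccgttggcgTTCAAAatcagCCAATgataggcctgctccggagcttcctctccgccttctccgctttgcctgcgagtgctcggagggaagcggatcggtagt
A CHR match was found in 7 of the 9 windows, those of Bub1b, Bub3, Ttk, Aurka, Plk1, Birc5 and Cdca8. The same letters occurred in 17.7% of the 8640 windows of tested genes and in 27.6% of all 32851 windows of the RefSeq table. The form TTTGAA stood in 6 of the 9 windows, against 10.8% of the windows of tested genes, and in Bub1b, Ttk, Aurka, Plk1 and Cdca8 it began 7 to 40 bases after the start base. CCAAT boxes were present in 7 of the 9 windows, compared with 39.1% of the windows of tested genes, and 2 or more of them in 5 of the 9, compared with 15.6%. In Cdca8 the last base of the CHR letters is also the first base of a CCAAT match. The E2F core GCGGGAA, searched the same way, occurred in 0 of the 9 windows and in 9.10% of the windows of tested genes. The Mad2l1 window held none of these letters, and its annotated start lies 169 bases from the start listed in the PRO-seq table. For Bub3 the distance was 148 bases, and for the other genes it was 35 bases or less. These matches are letters in a window, and no binding was measured here.

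**Figure D1:**
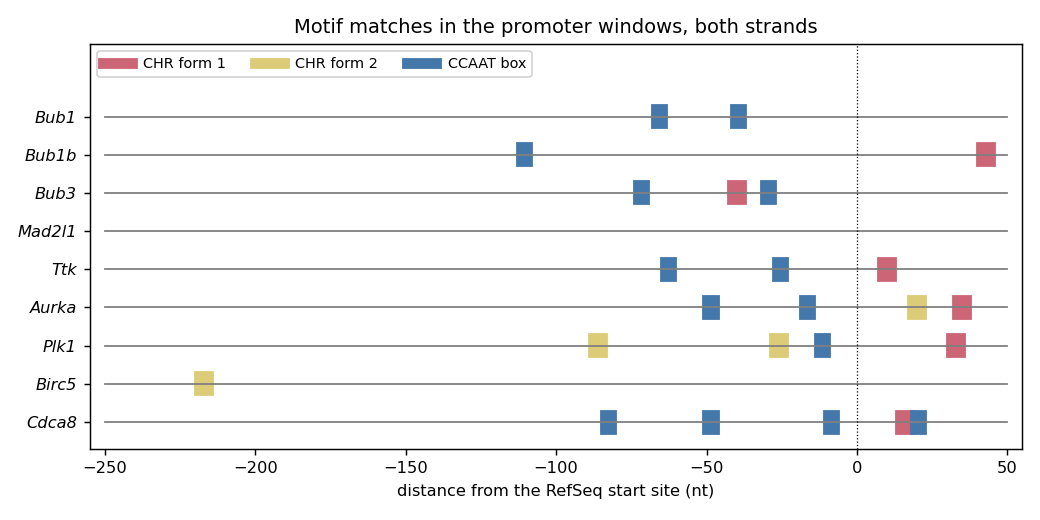
Positions of motif matches in the 300-base RefSeq promoter windows of 9 genes, with the distance from the annotated start site in nt on the horizontal axis. Red boxes mark the CHR letters TTTGAA, yellow boxes TTTAAA and blue boxes CCAAT, on either strand. The TTTGAA match begins after the start base in Bub1b, Ttk, Aurka, Plk1 and Cdca8 and before it in Bub3, and the Mad2l1 window is empty.

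In Ctrl MuSCs the 10 genes were transcribed at moderate levels. Their mean gene body values, which can be compared between genes because TPM is per length, ran from 41.5 TPM for Bub3, 41.0 TPM for Birc5 and 38.9 TPM for Plk1 through 27.5 TPM for Mad2l1, 26.4 TPM for Aurka, 25.9 TPM for Aurkb and 23.1 TPM for Cdca8 to 18.6 TPM for Bub1b, 12.2 TPM for Bub1 and 11.4 TPM for Ttk. The median of all tested genes was 15.9 TPM, so that Bub3 stood at the 84.8 percentile and Ttk at the 38.1 percentile. For each pair of neighbours in this order the ranges over the 3 Ctrl libraries overlapped. Within libraries, Plk1 was above Mad2l1, Aurkb above Cdca8 and Bub1b above Bub1 in all 3, while the other neighbours changed order between libraries and do not differ beyond their spread. The Ctrl libraries themselves were not alike for these genes. Ctrl replicate 1 was the highest Ctrl library for 9 of the 10 genes and Ctrl replicate 3 the lowest for 9 of the 10, and the median over the genes was 32.2 TPM, 25.0 TPM and 17.5 TPM in Ctrl replicates 1, 2 and 3.

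In Kmt5b sKO the gene body values were lower for all 10 genes. The median over the genes was 13.8 TPM, 12.8 TPM and 13.5 TPM in Kmt5b sKO replicates 1, 2 and 3, below each Ctrl library. In 9 of the 10 genes, all but Bub3, every Kmt5b sKO library lay below every Ctrl library, while 9.34% of the 12451 tested genes showed that pattern. The fit across all genes called 4 of the 10 at an adjusted p under 0.1, namely Bub1, Bub1b, Mad2l1 and Ttk, while 1.38% of all tested genes were called lower and 1.61% higher. Because the genes were chosen on this comparison, nothing is read from these counts. The number called also depends on single libraries. Leaving out Ctrl replicate 3 gave 9 calls and leaving out Ctrl replicate 2 gave 2 (Bub1 and Mad2l1), whereas leaving out Ctrl replicate 1 or a single Kmt5b sKO library gave 0, although 9 of the 10 genes had an unadjusted p under 0.05 in each of these fits. Between Ctrl replicates 1 and 3 alone the median log2 ratio of the genes was 0.75, which exceeds the median of 0.48 between Ctrl replicate 3 and the Kmt5b sKO mean.

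**Figure D2:**
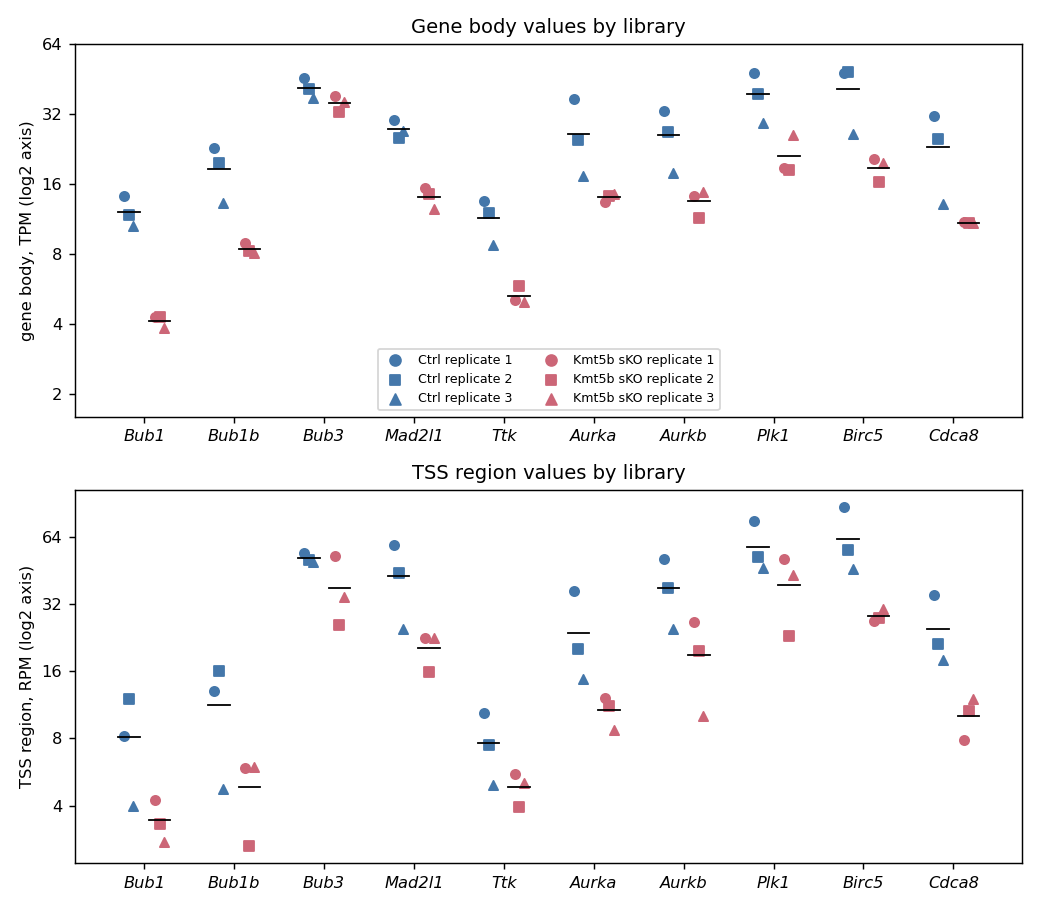
Gene body values in TPM (upper panel) and TSS region values in RPM (lower panel) of the 10 genes in each library, on log2 axes. Blue symbols are the 3 Ctrl and red symbols the 3 Kmt5b sKO libraries, symbol shapes give the replicate number, and horizontal bars are group means. In the upper panel the red symbols lie below the blue ones for every gene except Bub3, and the blue triangle of Ctrl replicate 3 is the lowest blue symbol for all but Mad2l1.

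Among the checkpoint kinases the difference was largest in Bub1, whose product phosphorylates histone H2A at centromeres and recruits shugoshin. Bub1 (ENSMUSG00000027379, chr2:127801122-127831865, minus strand, 25 exons) gave 14.2, 11.7 and 10.6 TPM in Ctrl, against 4.30, 4.28 and 3.83 TPM in Kmt5b sKO. The lowest Ctrl library was thus well above the highest Kmt5b sKO library. The means were 12.2 ± 1.88 TPM and 4.14 ± 0.266 TPM (SD, n = 3 each), a log2 difference of -1.44 ± 0.17 (SE), which was the 16th lowest of all tested genes. Leaving out any library moved this difference only between -1.53 and -1.33.

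Ttk, the kinase at the top of the checkpoint, is on chr9:83834690-83872389 (ENSMUSG00000038379, plus strand, 21 exons). Its gene body values were 13.5, 12.1 and 8.76 TPM in Ctrl, against 5.06, 5.85 and 5.00 TPM in Kmt5b sKO. The groups did not overlap, and the log2 difference was -1.02 ± 0.19. Bub1b encodes BUBR1, the pseudokinase that blocks CDC20, and lies on chr2:118598211-118641591 (ENSMUSG00000040084, plus strand, 23 exons). It gave 22.8, 19.7 and 13.3 TPM in Ctrl, against 8.96, 8.24 and 8.12 TPM in Kmt5b sKO, a log2 difference of -1.06 ± 0.21. The 3 Kmt5b sKO libraries lay within 1 TPM of each other, in contrast to the spread of the Ctrl libraries.

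Mad2l1 and Bub3, the remaining checkpoint components, differed from each other. Mad2l1 (ENSMUSG00000029910, chr6:66535390-66547220, plus strand, 6 exons) encodes the MAD2 protein that is converted to its closed, CDC20-binding form at unattached kinetochores. It gave 30.3, 25.1 and 27.1 TPM in Ctrl, against 15.4, 14.6 and 12.5 TPM in Kmt5b sKO, a log2 difference of -0.94 ± 0.14. It was the only one of the 10 genes in which Ctrl replicate 3 was not the lowest Ctrl library. Exons make up 64.3% of its listed gene body, more than in any other of the 10 genes, whose shares ran from 7.13% to 28.4%. Bub3 (ENSMUSG00000066979, chr7:131560222-131571892, plus strand, 8 exons) encodes a WD-repeat adaptor that also acts outside mitosis. Its values were 45.9, 41.0 and 37.6 TPM in Ctrl, against 38.1, 32.5 and 36.1 TPM in Kmt5b sKO. These groups overlapped, the log2 difference was -0.22 ± 0.13, and it was not called under any of the alternatives tried. Fgfr2 overlaps Bub3 on the opposite strand, and the authors counted reads on the gene's own strand.

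The mitotic kinases showed smaller margins. Aurka (ENSMUSG00000027496, chr2:172356190-172370535, minus strand, 9 exons) gave 37.2, 24.6 and 17.3 TPM in Ctrl, against 13.4, 14.2 and 14.5 TPM in Kmt5b sKO. The Ctrl range was wide, and Ctrl replicate 3 came close to the Kmt5b sKO libraries, so that the log2 difference of -0.82 ± 0.26 was not called. Its start lies 146 nt from that of Cstf1, which runs the other way. Aurkb (ENSMUSG00000020897, chr11:69045647-69051664, plus strand, 9 exons) gave 33.0, 26.9 and 17.8 TPM in Ctrl, against 14.3, 11.4 and 14.7 TPM in Kmt5b sKO, a log2 difference of -0.88 ± 0.23. Plk1 (ENSMUSG00000030867, chr7:122159439-122169873, plus strand, 10 exons) gave 48.2, 39.1 and 29.3 TPM in Ctrl, against 18.7, 18.4 and 26.1 TPM in Kmt5b sKO, a log2 difference of -0.86 ± 0.22. In Plk1, Kmt5b sKO replicate 3 stood apart from the other two and lay just under the lowest Ctrl library.

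The other passenger complex genes behaved like Aurkb. Birc5 (ENSMUSG00000017716, chr11:117849251-117855732, plus strand, 4 exons), which encodes the subunit that reads phosphorylated histone H3 at the centromere, gave 48.1, 48.4 and 26.4 TPM in Ctrl, against 20.6, 16.3 and 19.7 TPM in Kmt5b sKO. The log2 difference was -1.05 ± 0.25, and Ctrl replicate 3 lay nearer to the Kmt5b sKO libraries than to the other Ctrl libraries. Cdca8 (ENSMUSG00000028873, chr4:124918465-124936917, minus strand, 10 exons), which encodes borealin, gave 31.3, 25.0 and 13.1 TPM in Ctrl, against 11.0, 10.8 and 10.9 TPM in Kmt5b sKO, a log2 difference of -0.96 ± 0.29. Its 3 Kmt5b sKO values were nearly equal, while Ctrl replicates 1 and 3 differed by 1.26 on the log2 scale. None of Aurka, Aurkb, Plk1, Birc5 and Cdca8 was called at an adjusted p under 0.1, and all 5 were called without Ctrl replicate 3, or with edgeR or DESeq2 on the recovered reads.

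Over the 10 genes the median log2 difference of the gene body was -0.95, beside 0.02 over all 12451 tested genes. In the TSS region the median was -1.03, beside 0.08. As both units are relative, the medians over all genes do not show whether total transcription changed. TSS values of all 10 genes were lower on average in Kmt5b sKO, but the groups overlapped in 6 of them, and 4 (Mad2l1, Aurka, Birc5 and Cdca8) had every Kmt5b sKO library below every Ctrl library, a pattern of 5.33% of tested genes. Only Birc5 was called, where 0.731% of tested genes were called lower. The count became 5 when Ctrl replicate 3 was left out and 2 when Ctrl replicate 2 was left out. Leaving out Ctrl replicate 1 or a single Kmt5b sKO library gave 0 calls with limma, with 2 to 9 of the 10 genes at an unadjusted p under 0.05.

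Birc5 gave 86.9, 55.7 and 45.8 RPM in Ctrl, against 26.9, 27.7 and 30.4 RPM in Kmt5b sKO at the TSS, a log2 difference of -1.09 ± 0.26. Cdca8 had the largest TSS difference, -1.21 ± 0.33, with 35.1, 21.3 and 18.0 RPM in Ctrl, against 7.87, 10.6 and 11.96 RPM in Kmt5b sKO. Here the Kmt5b sKO libraries spread more than in its gene body. Aurka gave 36.6, 20.1 and 14.8 RPM against 12.1, 11.2 and 8.74 RPM, and Aurkb gave 51.1, 37.9 and 24.6 RPM against 26.6, 19.8 and 10.1 RPM, with log2 differences of -1.03 ± 0.35 and -1.03 ± 0.34. For Mad2l1 the values were 59.1, 44.2 and 24.8 RPM in Ctrl, against 22.6, 15.9 and 22.5 RPM in Kmt5b sKO, so that the lowest Ctrl library was barely above the highest Kmt5b sKO library.

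TSS values of the 3 large checkpoint kinase genes rested on few reads. Bub1 gave 8.23, 12.1 and 3.98 RPM in Ctrl, against 4.26, 3.30 and 2.76 RPM in Kmt5b sKO, from 5 to 34 reads per library. Bub1b gave 13.1, 16.1 and 4.74 RPM against 5.90, 2.64 and 5.98 RPM, from 4 to 54 reads. In both genes Ctrl replicate 3 lay inside the Kmt5b sKO range, unlike in their gene bodies. Ttk gave 10.4, 7.47 and 4.93 RPM against 5.57, 3.96 and 5.06 RPM, from 6 to 43 reads. Its log2 difference was -0.55 ± 0.43, and those of Bub1 and Bub1b were -1.02 ± 0.47 and -1.06 ± 0.48. Plk1 and Bub3, whose starts held more reads, gave log2 differences of -0.60 ± 0.29 and -0.50 ± 0.26. The TSS of Bub3 was even in Ctrl, with 54.2, 50.6 and 49.3 RPM, and uneven in Kmt5b sKO, with 52.5, 25.8 and 34.5 RPM. For Plk1, Kmt5b sKO replicate 1 at 50.8 RPM was above Ctrl replicate 3 at 46.4 RPM, while the others gave 75.5 and 51.7 RPM in Ctrl, against 23.1 and 43.2 RPM in Kmt5b sKO.

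**Figure D3:**
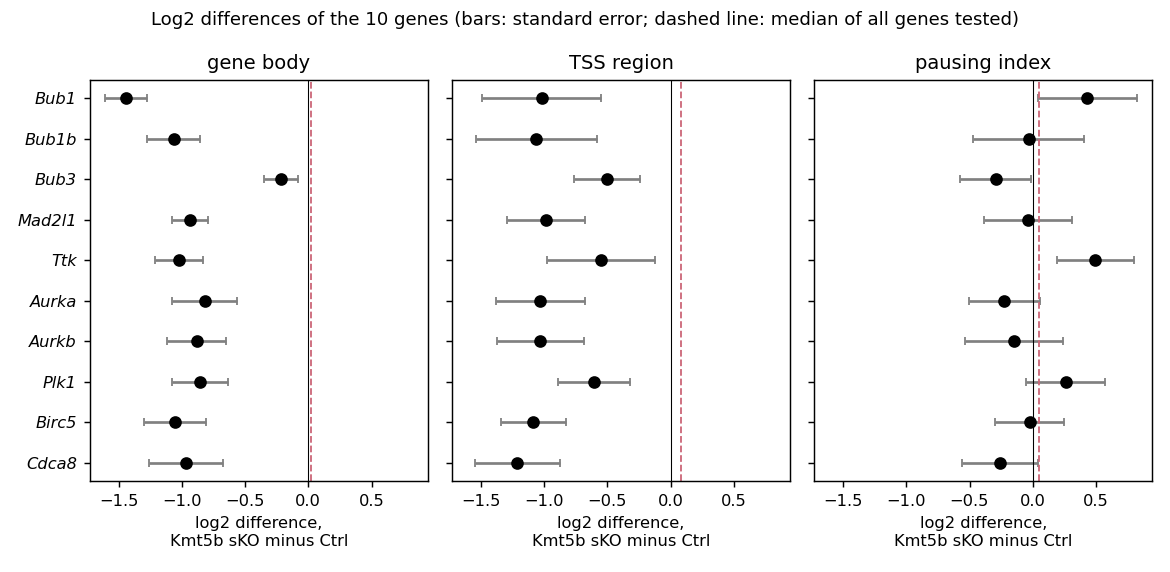
Log2 differences between Kmt5b sKO and Ctrl for the gene body, the TSS region and the pausing index of the 10 genes. Points are estimates from 3 libraries per group, bars are standard errors and dashed lines the medians of all tested genes. Gene body and TSS points lie left of 0 for all 10 genes, and the pausing index points lie on both sides of it.

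The pausing index showed no shift between genotypes that was common to the 10 genes. Because TSS and gene body values are scaled separately in each library, a shift shared by most genes would not show in it. In Ctrl replicates 1, 2 and 3 the median over the 10 genes was 1.15, 1.09 and 1.11, and in the Kmt5b sKO replicates it was 1.20, 0.884 and 0.984, and the median log2 difference was -0.04, beside 0.05 over the 11698 genes with reads in both regions of each library. It was negative in 7 genes and positive in Bub1 (0.43 ± 0.39), Ttk (0.49 ± 0.30) and Plk1 (0.26 ± 0.31). The groups overlapped in all 10 genes, where 9.02% of the genes tested did not overlap. With limma 0 of the 10 genes were called, and 0 had an unadjusted p under 0.05. Over all genes limma called 0.0%, with 452 at an unadjusted p under 0.05. The standard errors of 0.27 to 0.44 on the log2 scale would leave a moderate shift of single genes undetected at this depth.

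The level of the index in Ctrl ranged from low to near the median of all genes. It was below the median of 1.55 in 9 of the 10 genes, and Birc5 stood just above it at 1.57 ± 0.360 (SD, n = 3). The lowest values were those of the 3 genes with the longest bodies. Bub1b, with a body of 42980 nt, had an index of 0.582 ± 0.230, Ttk, with 37299 nt, had 0.652 ± 0.109, and Bub1, with 30343 nt, had 0.662 ± 0.334. These 3 stood at the 14.6, 17.04 and 17.5 percentiles of the genes tested. Aurka, Cdca8 and Bub3 were at the 26.1, 34.9 and 39.5 percentiles, and Aurkb, Plk1, Mad2l1 and Birc5 lay near the median, at the 46.5 to 50.4 percentiles. Aurkb and Birc5, whose bodies of 5617 and 6081 nt are the shortest, had 1.45 ± 0.089 and 1.57 ± 0.360. Aurka was low for its length, with 0.885 ± 0.087 at 13945 nt, while Cdca8 with 18052 nt had 1.12 ± 0.261. Across the 10 genes the rank correlation of index and body length was -0.87, while across all 11698 genes it was 0.18. The points of each correlation share the same 3 libraries, and body length also enters the index through the TPM in its denominator.

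**Figure D4:**
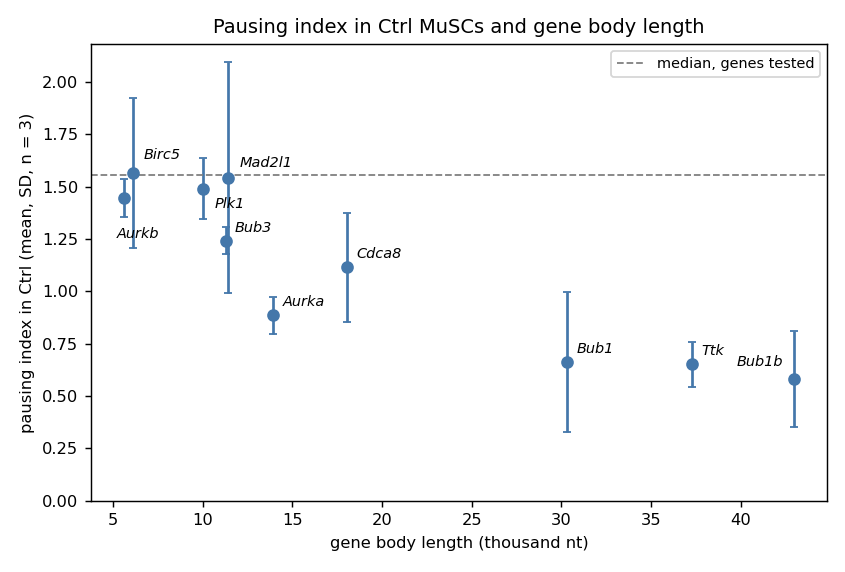
Pausing index in Ctrl (vertical axis, mean and SD of 3 libraries) against gene body length (horizontal axis) for the 10 genes, with the median of the tested genes as a dashed line. Bub1, Ttk and Bub1b lie at the lower right with values of 0.582 to 0.662, and Birc5 is the only gene above the median of 1.55.

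The 7 lists of related genes were examined in the gene body with the same fit. Of their 93 tested genes 29 were called lower and 0 higher, with a median log2 difference of -0.58. Over all 12451 tested genes 1.38% were called lower and 1.61% higher, and the median was 0.02. The same shares of all genes apply to each list below, and the lists were chosen with results of these libraries known, so their counts are a description. This limma count was 48 with Ctrl replicate 3 left out and 9 with Ctrl replicate 2 left out. It was 0 when Ctrl replicate 1 or a single Kmt5b sKO library was left out, with 43 to 49 genes at an unadjusted p under 0.05, and 40 with edgeR and 49 with DESeq2, which also called 1 gene higher. The positive differences included Plk2 (0.55 ± 0.18) and Ajuba (0.42 ± 0.16), named after their values were seen and not called by limma. Among 11 checkpoint partners 5 were called lower, and the median was -0.81. They were Kntc1 and Zwilch, subunits of the RZZ complex (-0.98 and -0.89, adjusted p of 0.10 and 0.061), Spdl1, the dynein adaptor that strips checkpoint proteins (-0.84, 0.085), Trip13, the ATPase that opens MAD2 (-0.85, 0.076), and Knl1, the scaffold that binds BUB1 and BUB3 (-0.81, 0.075), which was named after its value was seen. Kntc1 was no longer called with the X and Y chromosomes kept. Without the filter on low values neither Kntc1 nor Spdl1 was called, and the count over the 7 lists was 21. The RZZ subunit gene Zw10, also named after its value was seen and whose product also acts in membrane traffic, was at -0.03 and was not called.

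Among 8 partners of the Aurora kinases and PLK1, 6 were called lower and the median was -0.96. Incenp, the scaffold of the passenger complex, gave 34.7, 29.1 and 21.3 TPM in Ctrl, against 13.9, 13.0 and 14.3 TPM in Kmt5b sKO, a log2 difference of -0.99 ± 0.19 (adjusted p = 0.075). Its 3 Kmt5b sKO libraries lay below the 3 Ctrl libraries, as in Aurkb, Birc5 and Cdca8. Sgo2a and Sgo1, the shugoshins that protect cohesin and are recruited through the mark set by BUB1, were at -1.27 and -1.001, and Tpx2, the activator of Aurora A, at -1.03, with adjusted p of 0.065, 0.061 and 0.061. Of 16 other genes of the mitotic entry switch 6 were called lower, with a median of -0.39. Among these 6 were Nek2 (-1.24), Mastl (-1.09), Cdk1 (-0.99) and Plk4 (-0.98), with adjusted p of 0.075, 0.061, 0.084 and 0.065. In the KMN network, which binds microtubules at the kinetochore, 2 of 8 were called lower, with a median of -0.75. They were Ndc80 (-1.16) and Nuf2 (-1.08), with adjusted p of 0.071 and 0.075.

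For the anaphase-promoting complex, the target of the checkpoint, the counts depended on the tool. Of 17 tested genes limma called 0, with 4 at an unadjusted p under 0.05, while edgeR called 2 and DESeq2 called 3, and the median was -0.15. The largest differences were those of Ube2c, its ubiquitin-conjugating enzyme (-0.95 ± 0.22), and Fzr1, the CDH1 activator (-0.72 ± 0.28), neither of which was called by limma with all libraries. DESeq2 called both (adjusted p of 0.0034 and 0.044), and edgeR called Ube2c (0.061) but not Fzr1 (0.14). Without Ctrl replicate 3 limma called 4 of the 17, Ube2c and Fzr1 among them, and after quantile normalization it called 1, Ube2c. Of 16 G2/M regulators 2 were called lower, with a median of -0.22. They were Lin9 of the MuvB core (-0.70) and the pocket protein gene Rbl1 (-0.69), with adjusted p of 0.099 and 0.095. Neither was called without the filter on low values. Mybl2, which encodes B-MYB, and Foxm1 had larger differences of -1.08 ± 0.32 and -0.9998 ± 0.26. Limma did not call these genes (adjusted p of 0.17 and 0.13), and both were named after their values were seen. The difference was positive in 3 of the 16 regulators. Genes of DNA replication were also lower. Of 17 S phase genes 8 were called lower, with a median of -0.98. They were led by the replicative helicase subunit gene Mcm5 (-1.28), Pcna (-1.23), Gins1 (-1.13) and the licensing factor gene Cdc6 (-1.07). The adjusted p of these genes were 0.063, 0.074, 0.061 and 0.069. The S phase count was 5 without the filter on low values.

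**Figure D5:**
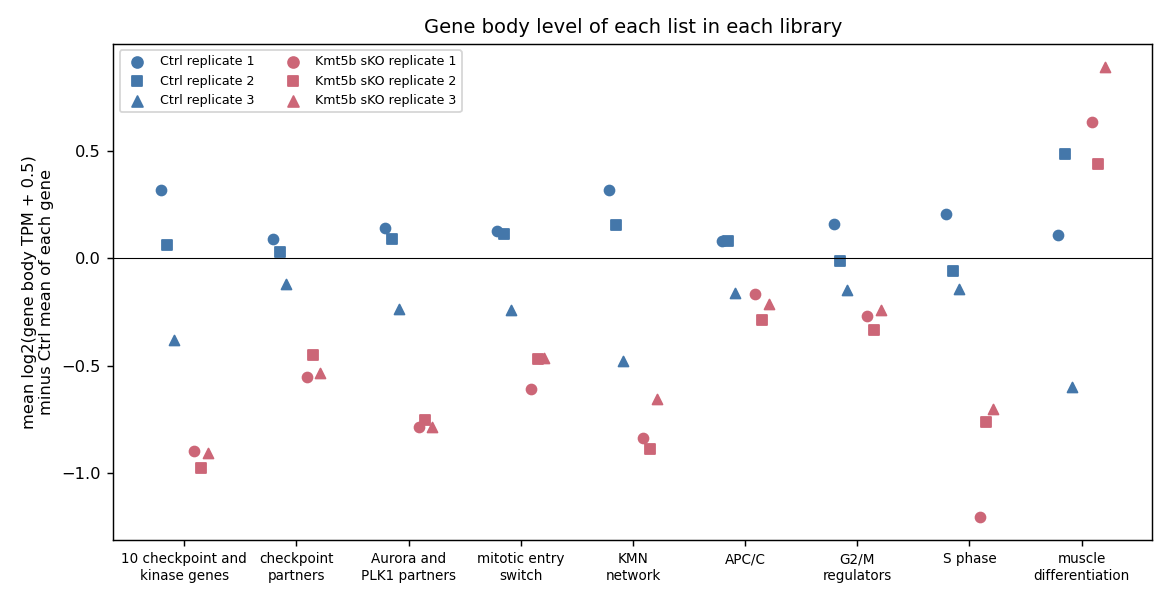
Mean log2 gene body level of each gene list in each library, after subtraction of each gene's Ctrl mean (vertical axis), for the 10 genes, the 7 related lists and a list of muscle differentiation genes. Blue symbols are Ctrl and red symbols Kmt5b sKO libraries, with the replicate number given by shape. The 10 genes reach -0.89 to -0.98 in Kmt5b sKO, Ctrl replicate 3 is the lowest Ctrl library in each list, and the muscle differentiation genes reach 0.44 to 0.89 in Kmt5b sKO, overlapping with Ctrl replicate 2 at 0.48.

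Across the 6 libraries the mean log2 gene body profile of the 10 genes was matched most closely by Top2a, Incenp, Skp2, Kifc5b and Cenpa, with Pearson correlations of 0.9998, 0.9990, 0.998, 0.997 and 0.992. Among the 10 genes themselves the correlation with their own mean ran from 0.890 for Bub3 to 0.997 for Bub1b. These are descriptions over 6 libraries that share the genotype split, and each member contributes to the mean.

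The identity of the cells was checked with marker genes. The 8 satellite cell and myoblast markers were all present, with a summed gene body level of 1574 to 2308 TPM in Ctrl, against 2077 to 2790 TPM in Kmt5b sKO. Myod1 (means of 1091 TPM in Ctrl and 1179 TPM in Kmt5b sKO) and Des (443 and 737 TPM) were the largest terms. Means were lower in Kmt5b sKO for Pax7 (38.6 ± 14.0 and 27.8 ± 2.07 TPM, SD), Myf5, Vcam1 and Cdh15. They were higher for Myod1, Des, Itga7 and Sdc4. The 6 muscle differentiation markers (Myog, Mymk, Myh3, Tnnt2, Acta1 and Ckm) summed to 2131, 2841 and 1363 TPM in Ctrl, against 3067, 2938 and 3817 TPM in Kmt5b sKO, so that every Kmt5b sKO library had the higher sum, the nearest pair being 2938 and 2841 TPM. On the mean log2 scale of the plot of gene lists by library the groups overlapped, with 0.44 in Kmt5b sKO replicate 2 and 0.48 in Ctrl replicate 2. The part of this difference in the values of the checkpoint and kinase genes was not tested. Markers of mature fibres overlapped between groups, at 101 to 269 TPM and 249 to 540 TPM. Glial markers (3 of 3 listed) reached 8.75 to 9.90 TPM in Ctrl, against 14.8 to 23.0 TPM in Kmt5b sKO, with mean Sox10 values of 3.29 and 10.8 TPM, and endothelial markers 2.50 to 4.23 TPM and 4.38 to 5.05 TPM, with Kdr and Emcn not among the genes listed. Their part in the results was not tested either. Fibroblast (4 of 6 listed) and mural (4 of 5 listed) markers overlapped between the groups, at 45.9 to 100 TPM against 56.3 to 90.9 TPM and at 30.4 to 65.6 TPM against 50.1 to 59.4 TPM. Of the 6 immune markers Ptprc, Csf1r, Adgre1 and Lyz2 were not among the genes listed. Cd68 and Itgam together overlapped between the groups, at 214 to 402 TPM in Ctrl against 320 to 326 TPM in Kmt5b sKO. Nearly all of this sum was Cd68, with means of 314 and 323 TPM. Itgam had means of only 0.457 and 0.583 TPM, so the 2 markers differed widely in level.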

How the data were processed

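PRO-seq libraries of 3 Ctrl and 3 Kmt5b sKO MuSC samples were used. The authors trimmed reads with Trimmomatic 0.39 after quality control with FastQC 0.11.8, aligned them to GRCm38 (mm10) with STAR 2.6.1d, keeping 1 random position per multi-mapping read, removed duplicates with Picard 2.18.16 and counted reads of the correct strand per isoform of protein-coding genes of at least 1000 nt. They listed 1 isoform per gene, chosen as the one with the highest TSS value. The values deposited for the TSS region are RPM, which the authors call TPM, and the values deposited for the gene body are TPM. Designs had been set for TPM, and the same test was used for RPM because all TSS regions are 400 nt long.

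Genes on X and Y were left out, as were autosomal genes averaging below 0.5 in the TSS region or the gene body. Values were tested as log2(value + 0.5) with limma 3.58.1 in R 4.3.3 (lmFit and eBayes with a trend), fitted on genotype alone, and a gene counted as called below an adjusted p of 0.1 (Benjamini-Hochberg over the whole set of genes tested). All log2 differences are on that scale, which slightly understates changes of low genes. For the pausing index the log2 ratio entered the fit without a pseudocount. Whole TSS reads were recovered from the steps between low TSS values (99.6% to 100% of values whole within 0.006 RPM). Gene body reads were recovered separately, with a constant for each library. For short gene bodies 98.7% to 99.9% of values were whole, and no such share is given for longer bodies. The recovered reads were used with edgeR 4.0.16 and DESeq2 1.42.0 as alternatives. The tests were tried on simulated data.

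The members and lists were chosen with earlier results of these data known. Genes named beside the members were the called genes of each list, at most 4 by size of the difference, or the 2 largest differences where none was called, and the 5 genes most correlated with the mean profile of the members. The study describes the libraries as biological replicates without saying whether each came from separate animals or cultures, and p-values measure the spread between these samples. Promoters were taken from RefSeq windows matched by symbol, and neighbouring genes and exons from GENCODE on GRCm38. Tables and plots were made in Python 3.11.15 with pandas 2.3.3, numpy 2.4.6 and matplotlib 3.10.9.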

Additional observations from a re-analysis of the deposited data

How the results depend on the processing

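All 150 alternative gene body differences and all 150 alternative TSS differences of the 10 genes kept their sign, at -1.59 to -0.14 and -1.57 to -0.27 on the log2 scale. The counts called did not hold. In the gene body 4 of the 10 were called, and 0 at an adjusted p under 0.05, 9 with DESeq2, 9 with edgeR, 7 after quantile normalization and 0 with a replicate block. Over all genes the gene body count of 372 became 1 at an adjusted p under 0.05, 1295 with DESeq2, 748 with edgeR and 0 with the block (1441 at an unadjusted p under 0.05). In the TSS region 1 of the 10 was called, and 0 at an adjusted p under 0.05, without a trend, without a filter and with the block (7 at an unadjusted p under 0.05), 3 with DESeq2, 4 with edgeR and 2 after quantile normalization. Over all genes the TSS count of 207 became 64 at an adjusted p under 0.05 and 0 without a trend, without a filter and with the block (1292, 1448 and 1141 at an unadjusted p under 0.05). Leaving out 1 library gave 0 to 9 gene body calls among the 10 genes and 0 to 836 over all genes, and 0 to 5 and 1 to 408 in the TSS region. The gene body and TSS medians of the 10 genes stayed within the spread between libraries in each setting. The median pausing index difference of the 10 genes ran from -0.136 to 0.0437 with 1 library left out, and turned positive without Ctrl replicate 1 (0.0437) and without Kmt5b sKO replicate 2 (0.0218). With 0.5 added to both values of the ratio, 1 gene of all was called in place of 0. With 1 library left out, pausing index differences ran from -0.346 to 0.34 for Bub1b, -0.378 to 0.167 for Mad2l1, -0.233 to 0.0918 for Birc5, -0.405 to 0.315 for Aurkb and -0.0444 to 0.511 for Plk1, each crossing 0, and that of Bub1b was 0.0040 with the pseudocount. The cause was not tested. Samples of the same number deviated in opposite directions (correlations of -0.33 to -0.15 in the gene body and -0.16 to -0.03 in the TSS region), which gives no sign of pairing by number. With so few libraries per group these correlations cannot decide whether samples were prepared together. TSS values of Bub1, Bub1b and Ttk rest on as few as 4 to 6 reads in a library.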
